A study of Mus musculus with 8 samples.

Results

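The genes described here are 51 members of the Ras, MAPK, PI3K and mTOR signalling pathways, given as a list, and the data are the CLIP peaks called within them. A peak was counted for a gene when its midpoint lay in the gene's RefSeq span on the strand that held most of its called peaks. By that rule 1096 of the 129323 called peaks of control 1 belonged to these genes, 1388 of 153768 in control 2, 1041 of 122284 in control 3 and 1585 of 167648 in the knockout. At least 1 called peak of any IP fell in each of the 51 genes, and 48 genes had one in all 4 IPs.

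CLIP crosslinks proteins to RNA in living cells with UV light, precipitates one protein and sequences the RNA fragments held by it. The protein was Zmat3, a zinc finger protein that binds RNA, and the series set out to find its RNAs. All cells were mouse embryonic fibroblasts (MEFs) that had received the adenoviral oncogene E1A and the activated Ras mutant HrasG12V from retroviruses. The 3 control lines were Cas9+;E1A;HrasG12V and carried sgNegative control EV, SPA and ACOCA, in that order. The knockout was 1 Zmat3-/-;E1A;HrasG12V line with no sgRNA, so that it also differed from the controls in lacking Cas9 and a guide. Each line gave 1 IP with the anti-Zmat3 antibody. Nothing in the labels says that the 3 control lines came from separate embryos, so the spread between them may be partly technical. Because oncogenic Hras was expressed from a virus in every line, the knockout included, the series holds no cells without it.

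Ras proteins are small GTPases that switch on when exchange factors such as Sos1 load them with GTP. They switch off when they hydrolyse it, which GTPase-activating proteins such as neurofibromin speed up. Active Ras recruits RAF kinases, which start a chain of kinases (MAP3K, MAP2K, MAPK), and it also activates PI3K, which signals through AKT and the TSC complex to mTOR. Fibroblasts transformed by HrasG12V depend on these branches, and dual-specificity phosphatases, Sprouty and Spred proteins feed back on them.

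Each peak came with a log2 fold and a −log10 p-value of the IP against a comparator, which was input (all 4 IPs) or the knockout IP (3 controls). A peak is called enriched here at a log2 fold of at least 3 with a −log10 p of at least 3. A qualifying peak is enriched over input and overlaps a peak of the same control that is enriched over the knockout IP. A region is a qualifying stretch shared by at least 2 controls. The 3 comparisons with the knockout IP share that 1 library, so their agreement with each other is no independent evidence.

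The sequence at hand covered the start sites of 48 of the 51 genes, from 250 bases before to 50 bases after each start (RefSeq, GRCm38.p6). Of 66 such windows, 28 held a called peak in at least 1 IP and 6 held one in all 4 IPs, the knockout included. None of the windows with a peak in all 4 IPs reached the enrichment threshold. The stretches of Nf1, Rasa2 and Ptpn11 are shown as examples of member RNA with called peaks both with and without Zmat3. Windows of Map3k7, Map2k3 and Akt2 also held a called peak in all 4 IPs and are not printed. Capitals mark bases covered by called peaks of all 4 IPs, up to the first 30 of them, and lower case marks the bases before them.
Nf1, chr11:79339792-79339905, plus strand: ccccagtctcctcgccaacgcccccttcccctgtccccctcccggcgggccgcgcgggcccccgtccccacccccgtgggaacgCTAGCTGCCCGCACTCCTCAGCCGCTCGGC
Rasa2, chr9:96631479-96631603, minus strand: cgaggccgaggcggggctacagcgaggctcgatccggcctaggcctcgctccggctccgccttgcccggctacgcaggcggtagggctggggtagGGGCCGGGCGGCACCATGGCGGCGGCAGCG
Ptpn11, chr5:121191348-121191365, minus strand: GGCAGGGGGTTGTGCGCG
The capitals hold 73.3% G and C in Nf1, 86.7% in Rasa2 and 77.8% in Ptpn11. They run from position -16 to 14 in Nf1, from -5 to 25 in Rasa2 and from 33 to 50 in Ptpn11, counted from the annotated start site as 1. Nf1 encodes neurofibromin, and its start-site peak had log2 folds over input of -0.44, -1.12 and -0.90 in controls 1 to 3 and -1.42 in the knockout. Rasa2 encodes another Ras GTPase-activating protein, and its start-site peak had 0.99, -0.52, 0.25 and -0.13 over input. Ptpn11 encodes the phosphatase SHP2, which passes receptor signals to Ras, and its start-site peak had 0.03, -0.42, 1.10 and -0.62 over input. The Nf1 peak lay below its input in each library, while the Rasa2 and Ptpn11 peaks lay above it in some controls and below it in the knockout.

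Over the whole series, Zmat3 itself was still covered in the knockout, by 38 called peaks, against 42, 48 and 39 in the 3 controls, so the number of called peaks in this gene alone does not separate the lines. Of the Zmat3 peaks of controls 1 to 3, 4, 16 and 1 were enriched over the knockout IP (9.52%, 33.3% and 2.56%, where the background was 0.621%, 1.09% and 0.648% of all called peaks). Over input 0, 1 and 0 were enriched, with 0 in the knockout. Enrichment here means a log2 fold of at least 3 with a −log10 p of at least 3. The lists give no read counts, and depth is unknown. Of 10 fibroblast marker genes, 6 (Col1a1, Col1a2, Dcn, Lum, Thy1 and S100a4) had no called peak in any IP. Vim, the mesenchymal intermediate filament gene, had 15, 18, 13 and 21 in controls 1 to 3 and the knockout, while Pdgfrb, a growth factor receptor gene of fibroblasts, had 16, 12, 10 and 2. The whole fibroblast list summed to 33, 35, 23 and 26 called peaks. Of 15 marker genes of epithelium, blood, endothelium, muscle and nerve, 10 had none, while Epcam had 9, 5, 11 and 10, and the list summed to 10, 14, 14 and 21. The part of cell makeup in any result here was not tested.

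The signalling genes differed widely in how densely peaks were called in them. The 5 genes with most called peaks were Rptor, Nf1, Map2k5, Map3k1 and Mtor, and the first 3 of these held 28.3% of the 5110 called peaks of all 51 genes and 4 IPs. Rptor, which encodes the Raptor subunit of mTOR complex 1, had 140, 141 and 125 called peaks in the 3 controls, next to 184 in the knockout. Nf1 had 113, 155, 123 and 127. Map2k5, which encodes the kinase MEK5, had 90, 70, 68 and 110. These are long genes, with spans of 296.7, 242 and 217.9 kb. Map3k1, a MAP3K of the JNK branch, had 54, 46, 49 and 42. Mtor, the kinase at the core of both mTOR complexes, had 48, 52, 50 and 41.

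The 5 genes with fewest were Mapk8, Pik3r1, Rras, Spry2 and Dusp1. Mapk8, which encodes the stress kinase JNK1, had 4, 0, 2 and 3 called peaks over 69.5 kb. Pik3r1, the main regulatory subunit gene of PI3K, had 0, 3 and 0 in the controls and 11 in the knockout over 87.5 kb. Rras, a Ras-related GTPase gene, had 5, 5, 2 and 2. Spry2 and Dusp1, both feedback inhibitors, had 1, 2, 4 and 7, and 5, 5, 3 and 2. Per kb of span the order was different, since short genes led. Dusp6, the ERK phosphatase gene, was densest at 2.27 ± 0.36 called peaks per kb (SD, n = 3) in the controls, and the knockout had 2.58. Akt1, the central kinase gene of the PI3K branch, varied little between libraries, at 1.27 ± 0.03 per kb in the controls and 1.38 in the knockout.

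**Figure D1:**
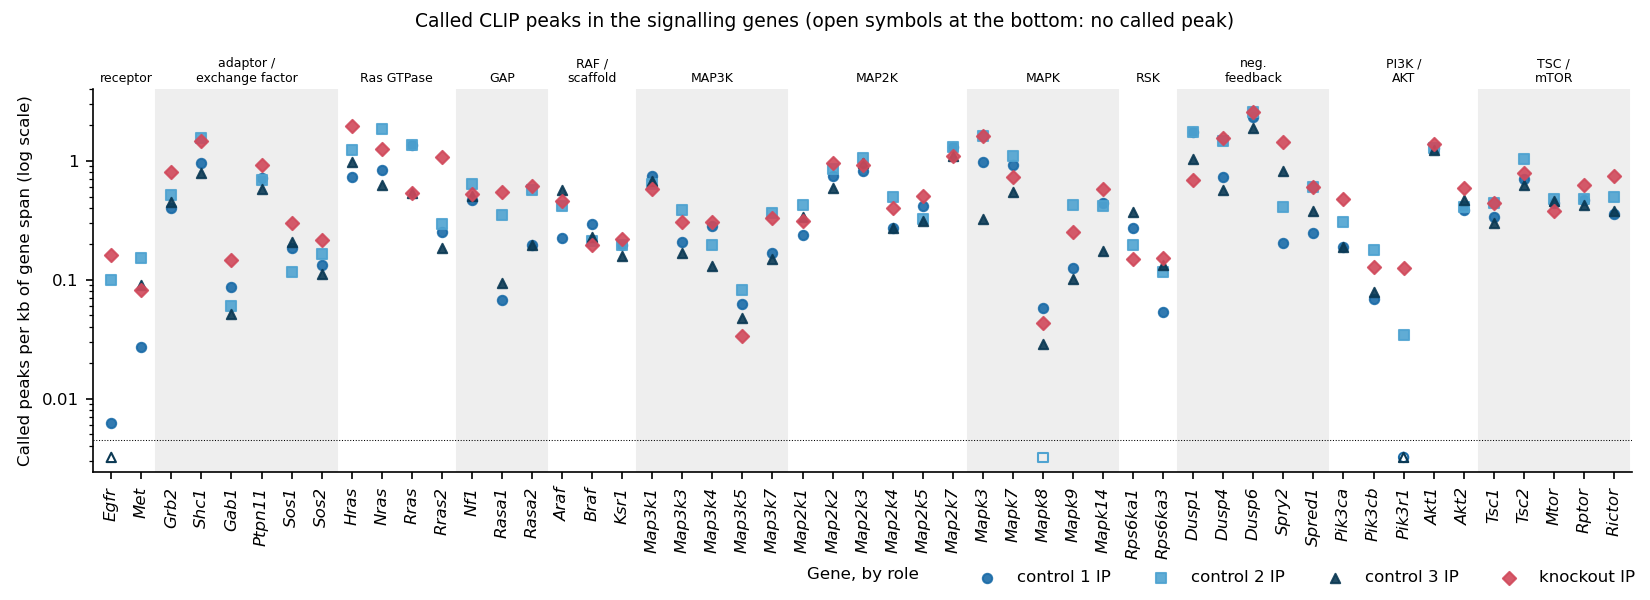
Called peaks per kb of gene span (vertical, log scale) in each of the 51 genes (horizontal, ordered by role), with 1 symbol per IP. Dusp6 is highest in the controls at 2.27 per kb on average, Mapk8 and Pik3r1 are lowest, and open symbols at the bottom mark genes without a called peak in that IP.

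Hras is the gene whose mutant form transforms the cells. It had 3, 5 and 4 called peaks in the controls and 8 in the knockout over a span of 4.09 kb, and 0 of them were enriched over either comparator. The lists do not separate RNA of the endogenous gene from that of the viral HrasG12V, and which of them gave these peaks was not tested.

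The share of a list's called peaks that fell in a gene was also compared between knockout and controls, a comparison added after the data were seen. It was made for the 44 members with at least 5 called peaks on average in the controls. In 12 of them (27.3%) the knockout share lay above each of the 3 controls, against a background of 20.0% of 6079 genes. In 10 of them (22.7%) it lay below each control, against 36.2% of these genes. Rras2, a Ras-related GTPase gene, had 18, 21 and 13 called peaks in the controls and 77 in the knockout, a share 3.61 times the control mean, and 34 of the 6079 genes had a higher ratio. Egfr, the epidermal growth factor receptor gene, had 1, 16 and 0 against 26, a ratio of 4.16 that rests on uneven controls. Rasa1, a Ras GTPase-activating protein gene, had 5, 26 and 7 against 41, a ratio of 2.77.

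At the other end, Rps6ka1, which encodes the ERK-activated kinase RSK1, had 11, 8 and 15 called peaks in the controls and 6 in the knockout. Its share in the knockout was 0.41 times the control mean. Map3k5, which encodes the stress-activated kinase ASK1, had 13, 17 and 10 against 7, a ratio of 0.43. Called peaks depend on the abundance of an RNA and on depth as well as on recovery by the antibody, and these cannot be told apart here.

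Few of the called peaks in these genes were enriched over input, with or without Zmat3. Enriched peaks numbered 13 in control 1, 13 in control 2 and 1 in control 3, or 1.19%, 0.937% and 0.0961% of the called peaks of the genes. The background over all called peaks of these lists was 1.02%, 1.05% and 0.494%. In the knockout 3 peaks were enriched, or 0.189%, against a background of 0.316%. The control mean was 0.740% ± 0.571 (SD, n = 3), and the share was above the knockout in 2 of 3 controls and below it in control 3. An exact two-sided permutation test over the 4 libraries gave p = 0.75, where the smallest p this design allows is 0.25. With 1 knockout library the test cannot reach 0.05. The knockout share lay within the range of the 3 controls.

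Against the knockout IP, 5, 9 and 5 peaks of the genes were enriched in controls 1 to 3, or 0.456%, 0.648% and 0.480% of their called peaks. The background was 0.621%, 1.09% and 0.648%, so the signalling genes lay below all called peaks in each control. Peaks that qualified over both comparators numbered 3, 5 and 1, or 0.274%, 0.360% and 0.0961%, against 0.165%, 0.633% and 0.137%. The share was above its background in control 1 and below it in controls 2 and 3.

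Counted by gene, 6 of the 48 members with called peaks in all 3 controls held a qualifying peak in at least 1 control, or 12.5%, against a background of 9.69% of 8574 genes. A region in at least 2 controls was found in 1 of the 48, or 2.08%, against 2.27%. The signalling genes are longer than most and hold more called peaks, with a median span of 63.7 kb against 27.5 kb and a median of 49.5 called peaks over the controls against 26. Among genes with at least 49.5 called peaks, 4 of 24 members (16.7%) and 20.9% of 2351 genes held a qualifying peak. These shares were near or below the background.

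**Figure D2:**
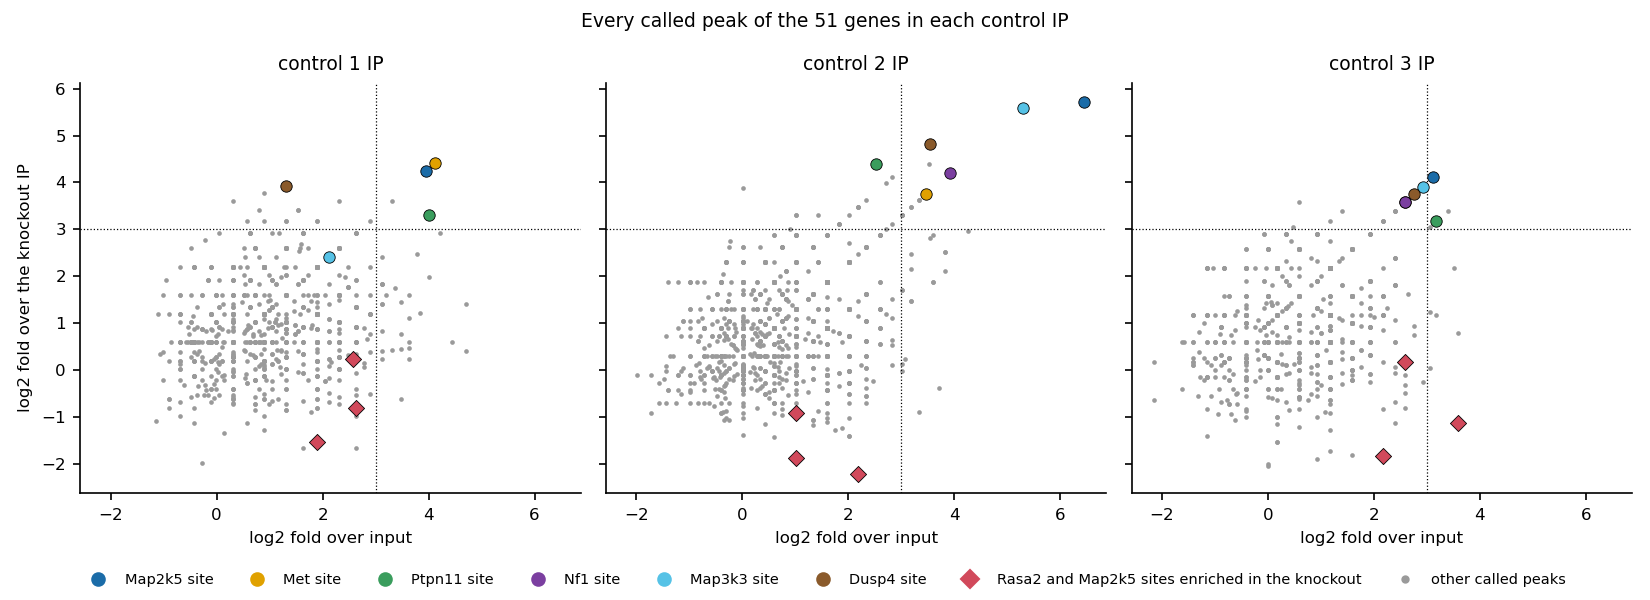
log2 fold over input (horizontal) against log2 fold over the knockout IP (vertical) of every called peak of the 51 genes, 1 panel per control IP, with dotted lines at a log2 fold of 3. Most peaks lie below both lines and form rows and columns of repeated values, the Map2k5 site lies above both lines in all 3 panels, and the sites enriched in the knockout lie near or below 0 on the vertical axis. The Met point is hidden under that of Nf1 in control 3, where both have the same values.

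Merging overlapping enriched peaks of any list gave 30 sites in 14 of the genes, and 37 genes had none. All 14 were among the 48 members called in all 3 controls, a share of 29.2%, against a background of 23.2% of 8574 genes. Among genes with at least 49.5 called peaks over the controls 11 of 24 members (45.8%) and 49.0% of 2351 genes had one. By role, sites lay in all 5 TSC and mTOR genes, which include Rptor and Mtor, both among the genes with most called peaks, 2 of 3 GTPase-activating protein genes, 2 of 5 MAP3K genes, 2 of 5 feedback genes, 1 of 6 adaptor and exchange factor genes, 1 of 6 MAP2K genes and 1 of 2 receptor genes. No site lay in the Ras GTPase, RAF and scaffold, MAPK, RSK, or PI3K and AKT genes. Of the 30 sites, 6 were enriched over both comparators in the same control, and the knockout IP had no called peak at any of them. These 6 were chosen by enrichment over the knockout IP, so the missing knockout peak is no separate evidence. A further 16 were enriched over input alone, and the knockout IP had a called peak at 6 of these. Another 4 were enriched over the knockout IP alone, 1 over each comparator in different controls, and 3 over input in the knockout itself.

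The region shared by all 3 controls lay in Map2k5, whose product MEK5 activates the MAP kinase ERK5. It covered 173 nt of chr9:63330012-63330184 on the minus strand, 51.6 kb from the 5′ end of the span. Its log2 folds over input were 3.96, 6.44 and 3.12 in controls 1 to 3, with −log10 p-values of 6.50, 24.4 and 3.75. Its log2 folds over the knockout IP were 4.24, 5.72 and 4.11, and the knockout IP had no called peak there. The means were 4.51 ± 1.73 (SD, n = 3) over input and 4.69 ± 0.90 over the knockout IP, and control 2 was the highest in both. The site ranked first of all Map2k5 peaks over the knockout IP in each control, where the median of the others was 1.01, 0.83 and 0.68. Over input it ranked 3, 1 and 3 in controls 1 to 3, where the highest other peak had 4.71, 3.72 and 3.60. The site was chosen by its enrichment over both comparators, so these ranks follow in part from that choice.

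The remaining enriched sites in Map2k5 behaved differently. There were 7 of them, and over the knockout IP the mean of each was below 1 on the log2 scale. The site at chr9:63222206-63222289 had log2 folds over input of 4.71, 3.07 and 2.60 in the controls and 2.17 in the knockout, and 0.41, 0.24 and 0.06 over the knockout IP. Close to it lay 3 more enriched sites. One of them, at chr9:63222380-63222439, was enriched in the knockout, at 3.55 over input against 2.58, 1.02 and 2.60 in the controls. A second site enriched in the knockout, at chr9:63310413-63310530, had 3.55 over input there against 1.90, 2.19 and 3.60. Its log2 folds over the knockout IP were -1.54, -2.23 and -1.14, so all 3 controls lay below the knockout. Called peaks above input were present at these 3 sites in every IP, the knockout included.

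**Figure D3:**
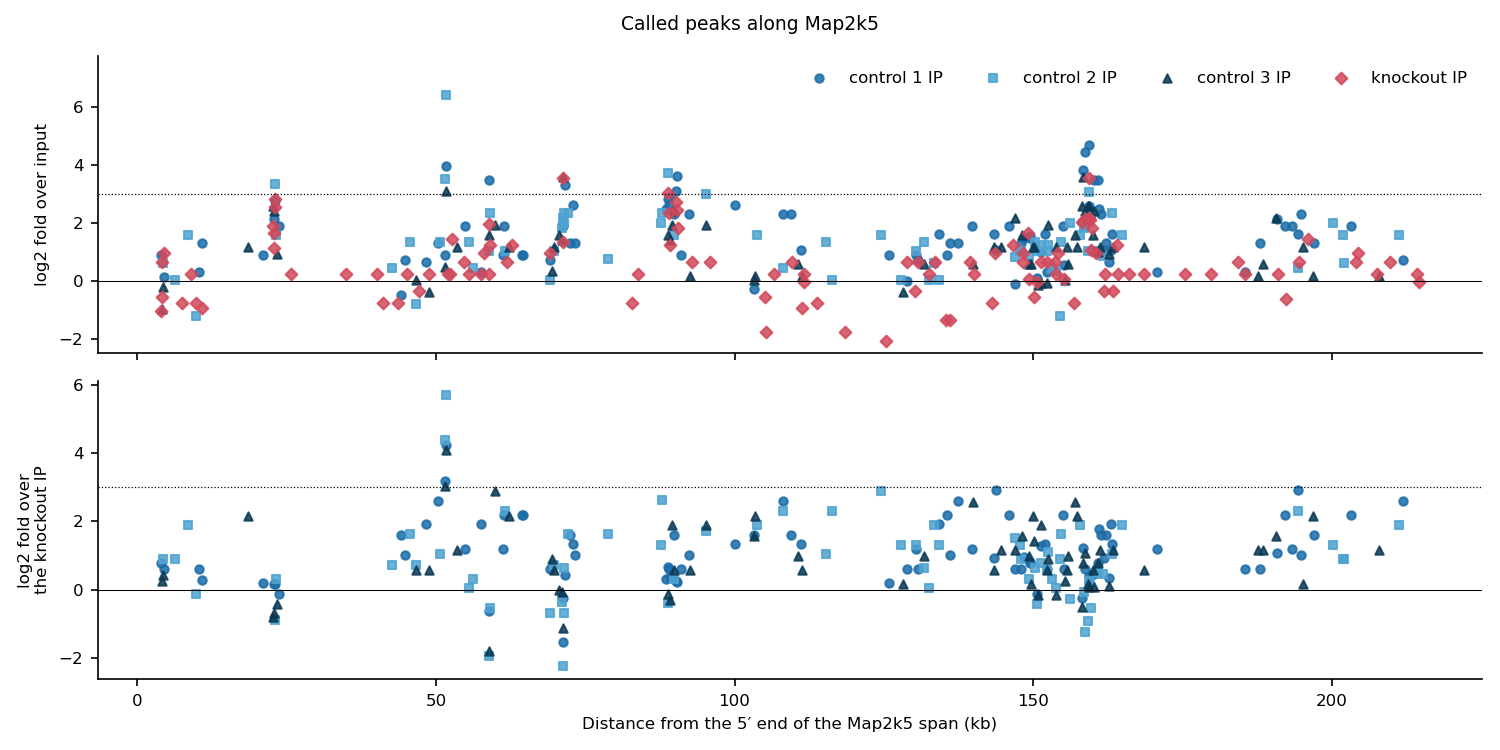
Called peaks along Map2k5 by distance from the 5′ end of its span in kb, with the log2 fold over input of each IP above and the log2 fold of the control IPs over the knockout IP below. Peaks rise above 3 in the upper panel at several places, where knockout peaks rise too, and at 51.6 kb controls alone rise above 3 in both panels.

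The other 5 sites enriched over both comparators reached both thresholds in a single control each. Met encodes the hepatocyte growth factor receptor. Its site, 80 nt at chr6:17493206-17493285 on the plus strand, had log2 folds over input of 4.12, 3.48 and 2.60 and over the knockout IP of 4.41, 3.76 and 3.58. It qualified in control 1, and it was the highest Met peak in all 6 lists, although Met had only 3, 17 and 10 called peaks in the controls and 9 in the knockout. Its means were 3.40 ± 0.77 and 3.92 ± 0.43 (SD, n = 3). The site was chosen by its enrichment over both comparators, so its rank among the Met peaks follows in part from that choice.

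Ptpn11 had a site of 176 nt at chr5:121154553-121154728 on the minus strand. Its log2 folds were 4.02, 2.52 and 3.18 over input and 3.30, 4.38 and 3.17 over the knockout IP. It was enriched over the knockout IP in all 3 controls and over input in control 1. A further Ptpn11 site, at chr5:121149268-121149499, was enriched over input in control 2 (3.82) and over the knockout IP in control 3 (3.39), and so did not qualify in either.

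Nf1 had a site of 122 nt at chr11:79386514-79386635 on the plus strand, 47 kb from its 5′ end. It was called in 2 of 3 controls, with log2 folds over input of 3.92 and 2.60 in controls 2 and 3 and of 4.20 and 3.58 over the knockout IP. Nf1 held 2 more sites, of which the one at chr11:79578135-79578228, 3.43 kb from the 3′ end, had 2.64, 3.54 and 1.04 over input and 2.92, 2.82 and 1.51 over the knockout IP.

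Map3k3 encodes MEKK3, a kinase that acts upstream of MEK5. Its site of 74 nt at chr11:106148458-106148531 on the plus strand had log2 folds over input of 2.12, 5.30 and 2.92 and over the knockout IP of 2.41, 5.58 and 3.90. Control 2 stood above the other two in both comparisons. Mapk7, the gene of ERK5 itself, had 5, 6, 3 and 4 called peaks and none enriched.

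Dusp4 encodes a nuclear phosphatase that inactivates ERK and JNK. Its site of 74 nt at chr8:34818276-34818349 on the plus strand, 1.58 kb from the 3′ end, had log2 folds over input of 1.31, 3.54 and 2.77. Over the knockout IP it had 3.92, 4.82 and 3.75, a mean of 4.17 ± 0.57 (SD, n = 3). The other 8, 17 and 6 Dusp4 peaks of these controls had median log2 folds over the knockout IP of -0.48, -0.21 and -1.64. Over the knockout IP the site stood above the other called peaks of its own gene, whose highest was 0.89 in any control. The site was chosen by its enrichment over both comparators, so its rank follows in part from that choice. Over input it ranked 4 in control 1, where another Dusp4 peak had 2.31, and 1 in controls 2 and 3.

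**Figure D4:**
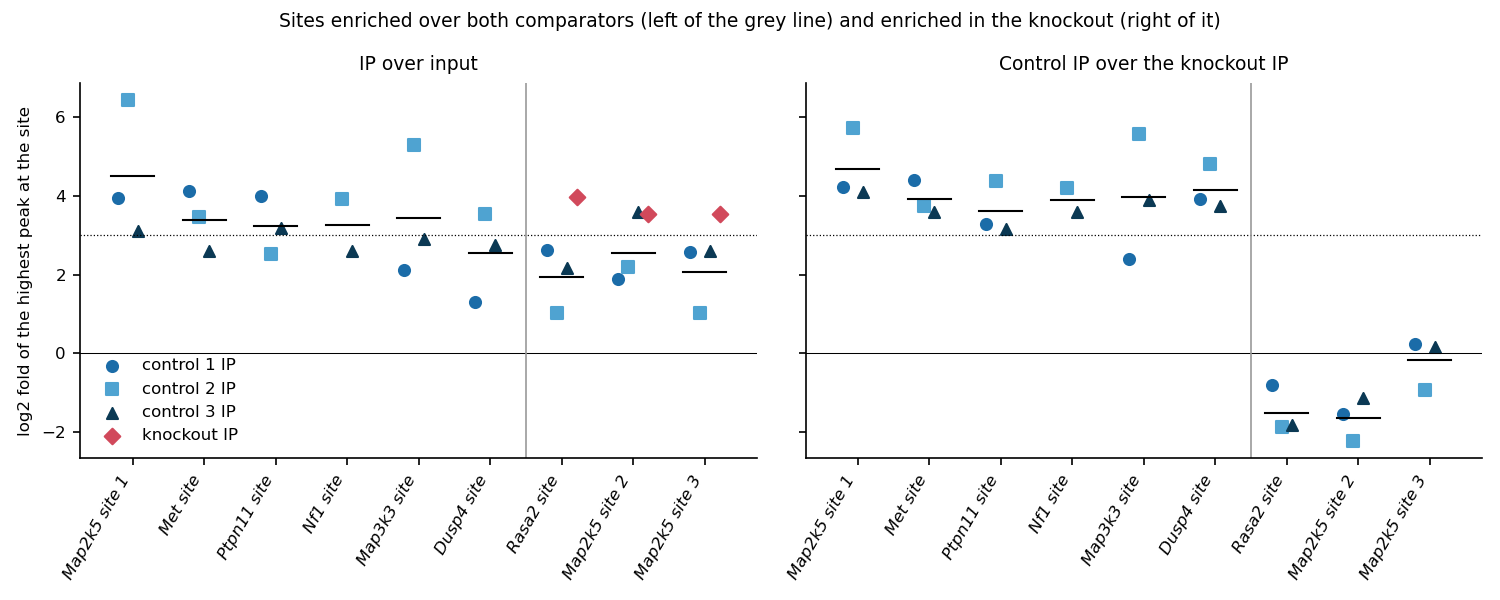
log2 fold (vertical) over input (left panel) and over the knockout IP (right panel) at 9 sites (horizontal), with 1 symbol per IP and a line at the mean of the controls in which the site was called. The 6 sites left of the grey line have no knockout symbol and means of 3.62 to 4.69 in the right panel, and the 3 sites right of it have means of -1.64 to -0.18 there. Both groups were chosen by enrichment, in the controls or in the knockout, so the gap between them follows in part from that choice.

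Rasa2 held the one site outside Map2k5 that was enriched over input in the knockout, 122 nt at chr9:96570326-96570447 on the minus strand. The knockout peak there had a log2 fold over input of 3.97, next to 2.64, 1.02 and 2.18 for the controls. Over the knockout IP the controls had -0.82, -1.87 and -1.83.

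The sites enriched over input alone are described after their values were seen. Outside Map2k5, Map3k1 held more of them than any other gene, and its 5 sites all reached the threshold in control 1 and in no other control. The highest, at chr13:111793970-111794060, had a log2 fold of 4.71 over input in control 1, was not called in controls 2 and 3, and had 1.97 in the knockout. Over the knockout IP control 1 had 1.41 there. Tsc2, which encodes tuberin, an inhibitor of mTOR complex 1, held 3 sites over input alone, and Tsc1, the gene of its partner hamartin, held 1. The Tsc1 site at chr2:28681076-28681160 had 3.12, 4.26 and 0.18 over input and 1.82, 2.96 and 2.17 over the knockout IP. It was enriched over input in control 2 alone. Dusp1, a phosphatase gene induced early by mitogens, held 1 site with 1.64 and 3.82 over input in controls 1 and 2.

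The sites enriched over the knockout IP alone lay in Nf1, Mtor, Rptor and Rictor, the last of which encodes the defining subunit of mTOR complex 2. The Nf1 site reached both the fold and the −log10 p threshold in control 3 alone, and the others in control 2 alone. In Mtor the site at chr4:148549212-148549334 had 0.90, 2.72 and 2.18 over input and 2.18, 3.998 and 3.17 over the knockout IP. In Rptor the site at chr11:119871480-119871588 had 3.60, 3.88 and 2.17 over the knockout IP but 0.31, 0.02 and -1.14 over input. In Rictor the site at chr15:6776613-6776709 was called in control 2 alone, with 2.82 over input and 4.10 over the knockout IP.

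Beyond single sites, the level of a whole gene was taken as the median log2 fold of its called peaks minus the median of all called peaks of the list. This was done for the 40 members with at least 5 called peaks in each control. Over the knockout IP, 10 of them (25%) lay below 0 in all 3 controls, against a background of 24.3% of 4982 genes, and 4 (10%) lay above 0 in all 3, against 20.0%. The 4 were Braf, Ksr1, Map3k5 and Rps6ka1, and the 10 were Grb2, Rras2, Rasa2, Map2k2, Map2k3, Map2k7, Dusp4, Dusp6, Spred1 and Akt1.

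The lowest members were phosphatase genes of the feedback group. Dusp4 had centred medians of -1.48, -1.03 and -2.53 over the knockout IP, a mean of -1.68 ± 0.77 (SD, n = 3), and 21 of 4982 genes were lower. Its centred medians over input were 0.15, 0.08 and -0.42, and 0.18 in the knockout. Dusp6 had -1.65, -0.75 and -1.73 over the knockout IP, a mean of -1.38 ± 0.54, and 41 genes were lower. Over input Dusp6 had -0.88, -0.45 and 0.08, and -0.15 in the knockout. Neither gene lay below 0 over input in all 3 controls.

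Map2k7, which encodes the JNK activator MKK7, came next, with -0.67, -1.28 and -1.11 over the knockout IP and a mean of -1.02 ± 0.32. Over input it had -0.39, 0.21 and 0.21 in the controls and 0.64 in the knockout. Spred1, which recruits neurofibromin to Ras, had -0.58, -0.17 and -0.42 over the knockout IP. Over the 4 feedback genes with a value (Dusp1 in 2 controls only), the median was -0.93 against the knockout IP and -0.24 against input. Rras2 had -0.72, -0.91 and -0.83 over the knockout IP and 1.00, 1.00 and 0.22 over input, next to its higher count of called peaks in the knockout. Akt1 had -0.75, -0.58 and -0.80, with a share of called peaks in the knockout that was 0.87 times the control mean.

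The highest members were Rps6ka1, Map3k5 and Gab1. Rps6ka1 had 0.42, 0.50 and 1.17 over the knockout IP, a mean of 0.69 ± 0.41 (SD, n = 3). Map3k5 had 0.83, 1.00 and 0.25, a mean of 0.69 ± 0.40. Both also had fewer called peaks in the knockout. Gab1, a docking protein gene of receptor signalling, had 0.00, 1.00 and 0.88. In contrast to those genes, Gab1 had more called peaks in the knockout, 17 against 10, 7 and 6, a share 1.77 times the control mean. More of an RNA in 1 line and more of it recovered by the antibody cannot be told apart in a comparison of IPs. The knockout was 1 line, and its own spread is not known.

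**Figure D5:**
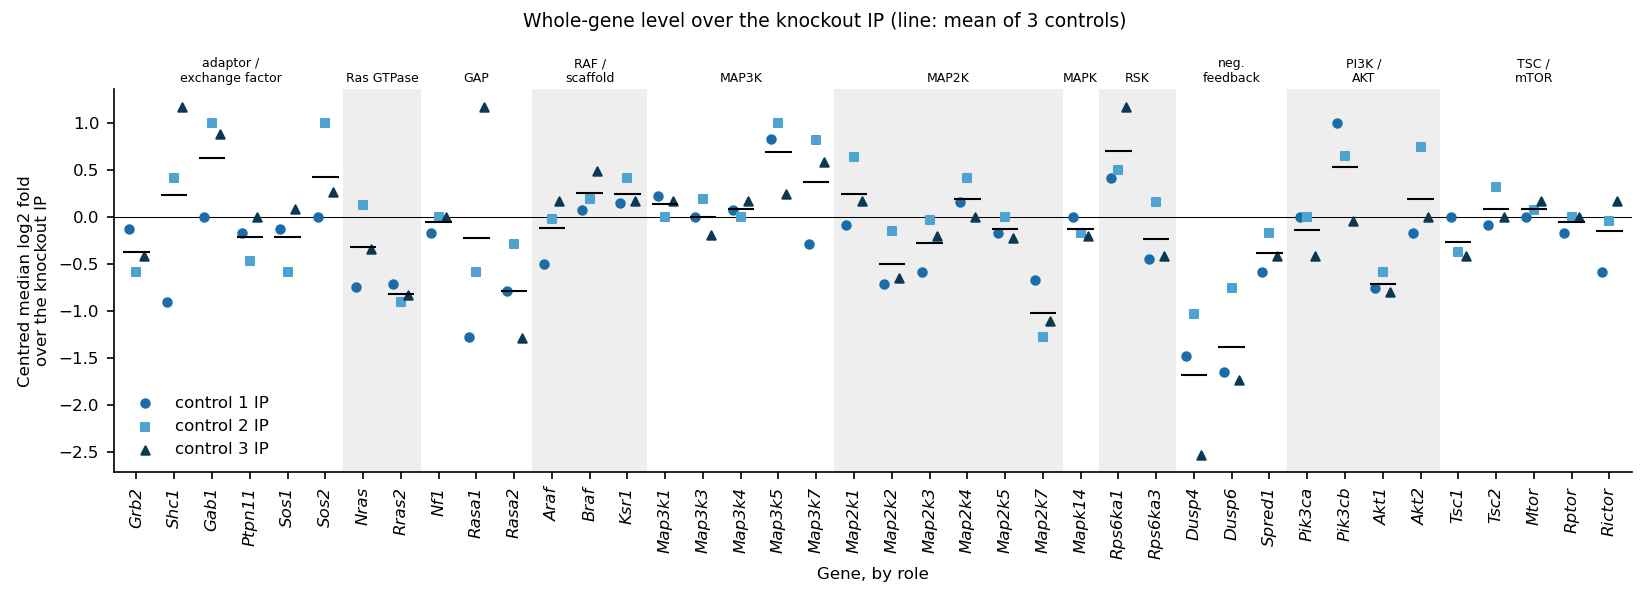
Centred median log2 fold over the knockout IP (vertical) of the 40 genes with at least 5 called peaks in each control (horizontal, ordered by role), with 1 symbol per control IP and a line at the mean. Dusp4 and Dusp6 are lowest, at -1.68 and -1.38, and Rps6ka1 and Map3k5 are highest, at 0.69 each.

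Among the remaining roles, the means over the knockout IP ran from -0.38 (Grb2, the adaptor that brings Sos1 to receptors) to 0.63 (Gab1) in adaptors and exchange factors. They ran from -0.12 (Araf) to 0.25 (Braf) in RAF and scaffold genes, and from -0.26 (Tsc1) to 0.08 (Mtor) in TSC and mTOR genes. Ras GTPase genes ran from -0.82 (Hras, control 2 alone) to -0.22 (Rras, 2 controls). GTPase-activating protein genes ran from -0.79 (Rasa2) to -0.06 (Nf1), so the means of both groups lay below 0. Single controls did not all do so. In these groups only Rras2 and Rasa2 lay below 0 in all 3 controls, and Rasa1 had -1.28, -0.58 and 1.17. Receptor genes ran from 0.00 (Egfr, 1 control) to 0.65 (Met, 2 controls). The MAP3K, MAP2K, MAPK, RSK, and PI3K and AKT groups each held values on both sides of 0. The log2 folds come in steps, so that many medians coincide with that of the list and are 0. The commonest value was shared by 11.8% to 22.4% of all called peaks of a list. Over input, 18, 14 and 3 peaks of the genes reached a −log10 p of 3 in controls 1 to 3, and 3 in the knockout. These are 1.64%, 1.01%, 0.288% and 0.189% of their called peaks, against 1.90%, 1.66%, 0.863% and 0.629% of all called peaks.

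A further 90 genes of the same pathways were counted as a list. Called peaks were present in all 3 controls for 81 of them, and 4 had none in any IP. Over input, 27, 25 and 18 of 1683, 1790 and 1547 called peaks were enriched in the controls, and 28 of 2156 in the knockout. These are 1.60%, 1.40%, 1.16% and 1.30%, against the backgrounds of 1.02%, 1.05%, 0.494% and 0.316% given above. Over the knockout IP, 6, 9 and 4 were enriched, or 0.357%, 0.503% and 0.259%, below the backgrounds of 0.621%, 1.09% and 0.648%.

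The share of called peaks that overlapped a peak of the knockout was lower for the signalling genes than for all called peaks in each control, a difference that was not tested. A called knockout peak overlapped 28.2%, 24.2% and 24.9% of the called peaks of the genes in controls 1 to 3, and 30.5%, 28.2% and 30.1% of all called peaks. Conversely, 19.8%, 21.7% and 16.2% of the 1585 knockout peaks of the genes overlapped a peak of controls 1 to 3, against 24.0%, 26.0% and 22.3% of all knockout peaks. Between the controls themselves the share was also lower for the signalling genes in every pair. It was 31.0% against 34.0% for control 1 with control 2, and 22.0% against 26.9% for control 2 with control 3. The lower overlap was thus not particular to the knockout. Along the gene span, the last 10% at the 3′ end held 14.1%, 16.1%, 14.3% and 13.4% of the called peaks in controls 1 to 3 and the knockout. The first 10% at the 5′ end held 13.4%, 10.95%, 12.7% and 13.8%, which is less in each control and more in the knockout. No background is given for these shares, and a difference between the ends was not tested. Some spans hold other coding genes, such as Omg, Evi2a and Evi2b within Nf1 on the opposite strand and Pkd1 beside Tsc2. Peaks on the strand opposite to a member numbered 2, 4, 2 and 2 over the 4 lists, with none enriched.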

How the data were processed

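The series holds 8 samples (4 IPs and 4 inputs), and 7 peak lists were used: 4 IPs over input and 3 control IPs over the knockout IP. The inputs had no list of their own. Per the labels, UV-crosslinked complexes between 35 and 110 kDa were cut from a membrane for sequencing of their RNA. The build was mm10, per the submitters' processing notes. Names of the aligner and peak caller, and the input library chosen, were not given in the sources used here. Deposited lists hold, for each peak, a log2 fold of the IP against its comparator and a −log10 p-value, both made by the authors. Both units are inferred from the numbers, since the lists have no header. Depth is unknown, so no counting interval is given.

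Genes and spans came from RefSeq (GRCm38.p6). Enrichment was a log2 fold of at least 3 with a −log10 p of at least 3, overlap was at least 1 nt on the same strand, and a site's value in a library was its highest peak. With 3 controls and 1 knockout, an exact permutation test was run for the share enriched over input, and the other comparisons are descriptions. The p-value of the permutation test measures the spread between these libraries only. The −log10 p-value of a peak compares 1 IP with its comparator and holds no spread between libraries. Named genes were members with a qualifying peak, with a knockout peak enriched over input, with most or fewest called peaks, with the highest or lowest median over the knockout IP, and Hras, and members by role. The members and lists were chosen with earlier results of these data known. Qualifying peaks of the further pathway genes are not reported here. Alternatives were other thresholds, overlaps, strands, supports and summaries, and each control left out in turn. The calling of regions was checked on simulated data. Python 3.11.15, pandas 2.3.3, numpy 2.4.6 and matplotlib 3.10.9 were used.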

Additional observations from a re-analysis of the deposited data

How the results depend on the processing

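Of 68 alternatives of the counts and medians, 43 stayed within 1.5 times the count or 1 SD between controls of the median. The others moved further, and reversal was not scored for these counts and medians. The members' median over input was 0 in each single control, so that SD allowed no change and any change of this median counted as moved. Strand, span overlap, overlapping genes and a 50% overlap changed no count. At a log2 fold of at least 4, the mean per control fell from 9 to 3.33 peaks enriched over input, from 6.33 to 3.33 over the knockout IP and from 3 to 1 qualifying, with 0 in the knockout and 0 regions. At a −log10 p of at least 5 they were 4, 2 and 1.67, with 1 in the knockout. With no threshold on the −log10 p they were 25, 22 and 7.33, with 4 regions, in Map2k5, Met and Ptpn11. Enrichment over input alone gave 2 regions, both in Map2k5, and over the knockout IP alone 4, in Dusp4, Map2k5, Map3k3 and Ptpn11. Without each control in turn, the mean over input ranged from 7 to 13. The Map2k5 region had to remain each time, since it qualified in all 3 controls and a region needs only 2. The members' median log2 fold, taken over the mean of each gene across the controls, was 0.13 over input. It was 0.12 on both strands, 0.15 from gene means, 0.00 in genes with at least 20 peaks, 0.82 uncentred, and 0.00 to 0.15 without 1 control. Over the knockout IP it was -0.12, -0.0071 from gene means, 0.89 uncentred, and -0.085 to 0.00 without 1 control. The cause was not tested. No paired analysis was possible because the inputs have no list of their own and the knockout has 1 library. Depth limits cannot be given without counts.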
